A study of Rattus norvegicus with 9 samples.

Results

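The genes by which the proximal tubule takes filtered protein back from the urine were examined in 9 rat kidneys. They are Lrp2, Cubn, Amn, Lrpap1, Dab2, Fcgrt, Folr1, Clcn5 and Ocrl, and each was taken as every probe that carries its name in the array files and is not a control. These 9 genes were all on the array, as 9 of 26115 gene names and 11 of 30367 gene probes, since Lrp2 and Dab2 have 2 probes each. All 11 probes passed the filter on low intensities, as did 15630 of the gene probes, and all 11 were well above background on each of the 9 arrays.

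The arrays compare 5 kidneys that were not perfused (NP) with 4 kidneys perfused with mesenchymal stromal cells (MSC). Kidneys of both groups came from Fisher F344 rats and had 20 min. of warm ischaemia from clamping, as in a donor after cardiac death. After the ischaemia NP kidneys were taken as they were, and MSC kidneys had 4 hrs of continuous perfusion at 4°C with Belzer solution (BS) to which MSC were added. Kidneys of both groups were stored in RNA preservative. The MSC were a culture from bone marrow of transgenic Sprague Dawley rats that express EGFP, and the arrays hold no group perfused with BS alone under its own treatment label, so that the perfusion and the MSC cannot be told apart. The sources disagree on the controls: the treatment field and the study's design call them not perfused, while titles and descriptions give them perfusion with BS. The name NP follows the treatment field. Age and sex are not given in the sources used here. Each array holds the RNA of 1 kidney. The study discarded 1 more MSC array for poor quality, which was not analysed here.

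Megalin (Lrp2) and cubilin (Cubn) are very large receptors of the brush border that bind albumin, vitamin carriers and many other filtered proteins, and amnionless (Amn) brings cubilin to the membrane. The receptors enter clathrin-coated pits through the adaptor Dab2, release their cargo in endosomes acidified with the help of the chloride-proton exchanger Clcn5, and return to the brush border. Loss of CLCN5 or OCRL causes Dent disease or Lowe syndrome, in which filtered protein is lost in the urine, and poor protein uptake is a known feature of the ischaemic tubule.

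The sequences of 5 probes are given, 1 each for Lrp2, Cubn, Amn, Dab2 and Fcgrt. For Lrp2 and Dab2 they are 1 of the 2 probes on which the comparison rests. They were taken from the probes with a reading frame free of stop codons, which the other Lrp2 probe, A_44_P1047441, with a GC content of 28.3%, does not have. All are 60 bases long and are written 5′ to 3′ as the array files give them. Their positions are those of the files, on rn4. Whether each of them lies in coding sequence or in which exon was not looked up, because no rn4 annotation was used here.
Lrp2, probe A_64_P090558, chr3:51565099-51565158, minus strand: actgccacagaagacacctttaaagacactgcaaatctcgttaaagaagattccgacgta
Cubn, probe A_44_P405130, chr17:87546312-87546371, minus strand: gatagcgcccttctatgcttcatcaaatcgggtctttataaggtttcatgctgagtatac
Amn, probe A_42_P472699, chr6:136038513-136038572, plus strand: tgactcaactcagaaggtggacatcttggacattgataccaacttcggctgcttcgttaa
Dab2, probe A_64_P144944, chr2:55734279-55734338, plus strand: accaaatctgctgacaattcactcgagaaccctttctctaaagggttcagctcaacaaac
Fcgrt, probe A_44_P996997, chr1:95568453-95568512, minus strand: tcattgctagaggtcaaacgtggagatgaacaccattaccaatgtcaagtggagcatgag

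The other probes lie at chr3:51563808-51563867 on the minus strand (Lrp2, A_44_P1047441), chr2:55736106-55736165 on the plus strand (Dab2, A_44_P513385), chr14:81306006-81306065 on the plus strand (Lrpap1, A_64_P020761), chr1:159315267-159315326 on the minus strand (Folr1, A_64_P107892), chrX:27409818-27409877 on the plus strand (Clcn5, A_64_P084243) and chrX:134322065-134322124 on the plus strand (Ocrl, A_44_P479631). The accessions of 10 of the 11 probes carry the same symbol in the RefSeq table of the rat, and that of Lrpap1 had no entry. The files place the Lrp2 probes at transcript bases 15334 (A_44_P1047441) and 14042 (A_64_P090558), and the Dab2 probes at 2895 (A_44_P513385) and 2184 (A_64_P144944). Amn was printed in 10 spots on each array and every other probe in 2.

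Values are log2 intensities normalised between arrays by cyclic loess. A level of one probe is not read as more or less RNA than that of another, because probes differ in brightness for the same amount of RNA. The gap between probes of one gene is compared only from array to array. MSC and NP arrays were compared probe by probe with limma's linear model, and p-values were adjusted over the 15630 probes by the Benjamini-Hochberg method (FDR). Calling a probe took an FDR under 0.05 and a fold change above 1.5. None of the 11 probes was called by limma in either direction, and neither was any of the 15630 (0% higher and 0% lower). The lowest FDR of any probe was 0.104 (limma). The study, with its own filter and 1 probe a gene, did report genes called higher at these thresholds, none of them a member. At an unadjusted p under 0.05, 1 of the 11 was higher in MSC kidneys, that of Fcgrt, and 0 were lower, where 6.52% of all probes were higher and 5.16% lower. The log2 fold change was above 0 for 6 of the 11 probes, as for 48.8% of all probes, and had a median of 0.02, against -0.005 over all probes. The size of the fold change, whatever its sign, had a median of 0.06 for the 11 probes and 0.12 over all. Since RNA was taken from whole tissue, fewer cells of a type and less RNA per cell cannot be told apart in any of these values.

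**Figure D1:**
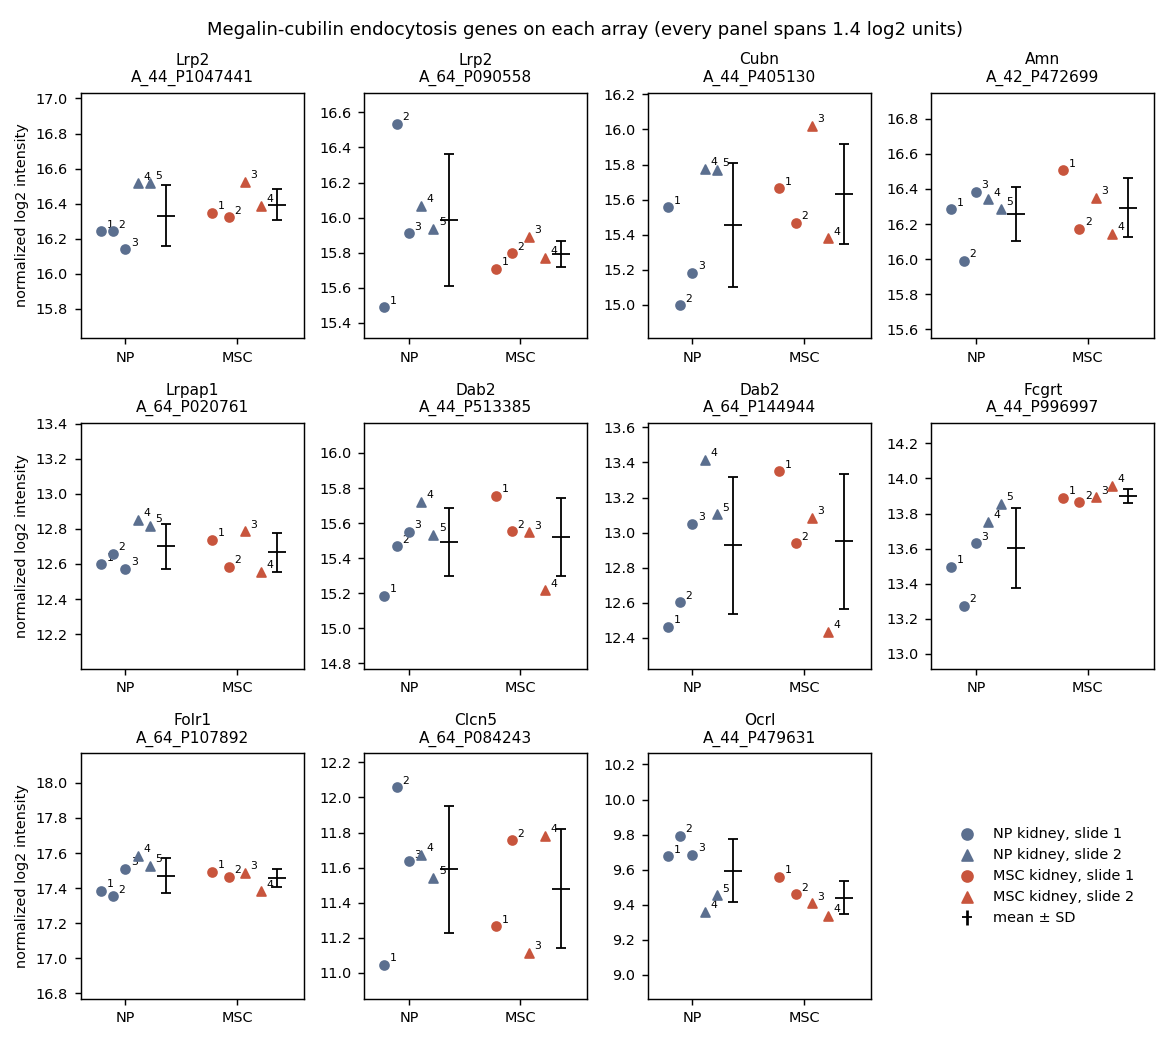
Normalised log2 intensity of the 11 probes on each array, with 5 NP kidneys in blue and 4 MSC kidneys in red, circles for slide 1, triangles for slide 2, and the mean ± SD beside each group. Each panel spans the same number of log2 units around its own probe. The groups overlap for every probe but that of Fcgrt, whose 4 MSC values lie between 13.86 and 13.96, above the highest NP value of 13.85.

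The endocytic receptor megalin was read by a pair of probes that did not follow each other from array to array. On probe A_44_P1047441, Lrp2 had log2 intensities of 16.24, 16.24, 16.14, 16.52 and 16.52 in NP kidneys 1 to 5 and of 16.35, 16.32, 16.52 and 16.39 in MSC kidneys 1 to 4. NP kidneys 4 and 5 and MSC kidney 3 were highest, all of them on slide 2, and the groups overlapped. The mean was 16.33 ± 0.17 (SD, n = 5) in NP and 16.40 ± 0.09 (SD, n = 4) in MSC kidneys, with a log2 fold change of 0.06 (95% interval -0.16 to 0.29, limma FDR = 0.838), which became -0.02 when the arrays were scaled to a common median. With 1 array left out this value ran from 0.02 (without NP kidney 3) to 0.11 (without NP kidney 4 or 5). On probe A_64_P090558, Lrp2 had 15.49, 16.54, 15.91, 16.07 and 15.94 in the NP kidneys and 15.71, 15.80, 15.89 and 15.77 in the MSC kidneys. Here NP kidneys 1 and 2 were the lowest and the highest of all arrays, and the 4 MSC values lay between them. The log2 fold change was -0.20 (95% interval -0.58 to 0.19, limma FDR = 0.675). Without NP kidney 1 it was -0.32, and without NP kidney 2 it was -0.06, with no call in either case (limma).

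The gap between the Lrp2 probes (A_64_P090558 minus A_44_P1047441) was -0.75, 0.29, -0.23, -0.45 and -0.58 in the NP kidneys and -0.64, -0.53, -0.63 and -0.61 in the MSC kidneys. NP kidney 2 lay farthest from the other arrays, and the SD of the gap was 0.40 over the NP and 0.05 over the MSC kidneys. The mean gap differed by -0.26 between MSC and NP kidneys (exact two-sided permutation test over the 126 splits of the arrays, p = 0.270). With the mean of both probes, the log2 fold change of Lrp2 was -0.07 (SE 0.11, limma FDR = 0.846).

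Cubilin, which has no membrane-spanning part of its own, had log2 intensities of 15.56, 15.00, 15.18, 15.77 and 15.77 in NP kidneys 1 to 5 and of 15.66, 15.47, 16.02 and 15.38 in MSC kidneys 1 to 4. The highest value was that of MSC kidney 3, the lowest were those of NP kidneys 2 and 3, and the other MSC kidneys lay among the NP kidneys. The mean of Cubn was 15.46 ± 0.35 (SD, n = 5) in NP and 15.63 ± 0.28 (SD, n = 4) in MSC kidneys. For Cubn the log2 fold change was 0.18 with a 95% interval of -0.25 to 0.61 (limma FDR = 0.745). It was 0.05 without MSC kidney 3, 0.06 without NP kidney 2 and 0.01 with array weights. The upper end corresponds to a fold of 1.52, and Cubn was the only one of the 11 probes whose interval reached a 1.5-fold difference in either direction.

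Amnionless, the membrane partner of cubilin, had log2 intensities of 16.29, 15.99, 16.38, 16.34 and 16.29 in the NP kidneys and of 16.51, 16.17, 16.35 and 16.14 in the MSC kidneys. NP kidney 2 was the lowest, and MSC kidney 1 the highest. With a mean of 16.26 ± 0.15 (SD, n = 5) in NP and 16.29 ± 0.17 (SD, n = 4) in MSC kidneys, Amn had a log2 fold change of 0.04 (95% interval -0.20 to 0.28, limma FDR = 0.920). Its sign was the opposite when the arrays were scaled to the 75th percentile (-0.01) or to the median (-0.05), and also without NP kidney 2 (-0.03) or MSC kidney 1 (-0.03). Cubn and Amn therefore had intervals that both include 0, and NP kidney 2 held the lowest value of each.

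Lrpap1, also called RAP, is the chaperone that keeps megalin free of ligands on its way through the endoplasmic reticulum. It had log2 intensities of 12.60, 12.66, 12.57, 12.85 and 12.82 in the NP kidneys and of 12.74, 12.58, 12.79 and 12.56 in the MSC kidneys. The NP kidneys of slide 2 were the highest and MSC kidney 4 was the lowest, with the groups interleaved. Its log2 fold change was -0.03 (95% interval -0.24 to 0.17, limma FDR = 0.908).

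Dab2 links the tails of the receptors to clathrin and its adaptor complex. On probe A_44_P513385 it had log2 intensities of 15.18, 15.47, 15.55, 15.72 and 15.53 in the NP kidneys and of 15.76, 15.55, 15.55 and 15.22 in the MSC kidneys. On probe A_64_P144944 Dab2 had 12.46, 12.60, 13.05, 13.42 and 13.11 in the NP kidneys and 13.35, 12.94, 13.08 and 12.43 in the MSC kidneys. On both probes NP kidney 1 and MSC kidney 4 were the lowest arrays and NP kidney 4 and MSC kidney 1 the highest, with a wider range on A_64_P144944. Dab2 had a log2 fold change of 0.03 (95% interval -0.27 to 0.32, limma FDR = 0.953) on A_44_P513385 and 0.02 (95% interval -0.48 to 0.53, limma FDR = 0.975) on A_64_P144944. Median scaling gave -0.05 and -0.02. The gap between the Dab2 probes differed by -0.003 between the groups (exact two-sided permutation test over 126 splits, p = 0.992). The lowest and highest pairs of arrays were thus shared by the probes of Dab2, but the order within these pairs and that of NP kidneys 3 and 5 and MSC kidneys 2 and 3 differed.

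Fcgrt, the neonatal Fc receptor that carries IgG and albumin across cells and spares them from lysosomes, was the one member whose MSC and NP values did not overlap. Its log2 intensities were 13.50, 13.27, 13.63, 13.75 and 13.85 in the NP kidneys and 13.89, 13.86, 13.89 and 13.96 in the MSC kidneys. All 4 MSC kidneys were above all 5 NP kidneys, which 3.15% of all probes showed (493 of 15628 with a value on every array), and no member had all MSC kidneys below all NP kidneys, as 2.13% did. The highest NP value of Fcgrt, 13.85, lay just under the lowest MSC value, 13.86. The mean of Fcgrt was 13.60 ± 0.23 (SD, n = 5) in NP and 13.90 ± 0.04 (SD, n = 4) in MSC kidneys. Its log2 fold change was 0.30 (SE 0.11, 95% interval 0.04 to 0.55), a fold of 1.23, and at a limma FDR of 0.384 over all probes it was not called.

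Of the NP values of Fcgrt, the lowest was that of NP kidney 2, where its 2 spots read 4731 and 8854, a coefficient of variation (CV) of 42.9%. Its median CV over the arrays was 5.86%. Without NP kidney 2 the log2 fold change was 0.22 (limma FDR = 0.456), and with array weights it was 0.16 (limma FDR = 0.374). Fcgrt was higher in MSC kidneys on both slides, by 0.41 on slide 1 and 0.12 on slide 2. Its 27 alternatives all gave a log2 fold change above 0, with an FDR between 0.294 and 0.921. The unadjusted limma p was not under 0.05 in 6 of them, with median scaling, 75th percentile scaling, array weights, slide 2 alone, and without NP kidney 1 or MSC kidney 4.

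Folr1, the folate receptor with which the proximal tubule recovers filtered folate, varied the least among arrays. It had log2 intensities of 17.38, 17.35, 17.51, 17.59 and 17.53 in the NP kidneys and of 17.49, 17.47, 17.49 and 17.38 in the MSC kidneys, all of the MSC values within the range of the NP values. For Folr1 the log2 fold change was -0.01 (95% interval -0.18 to 0.15, limma FDR = 0.957).

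Of the endosomal members, Clcn5 exchanges chloride for protons and Ocrl is a phosphatase of the membrane lipid PI(4,5)P2. Clcn5 had log2 intensities of 11.05, 12.06, 11.64, 11.67 and 11.54 in the NP kidneys and of 11.27, 11.76, 11.11 and 11.78 in the MSC kidneys. NP kidneys 1 and 2 were the extremes of all arrays, with the 4 MSC kidneys in 2 pairs between them. The log2 fold change of Clcn5 was -0.11 (95% interval -0.58 to 0.35, limma FDR = 0.863), and without NP kidney 2, whose spots read 2118 and 3637, it was 0.004.

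Ocrl had log2 intensities of 9.68, 9.79, 9.68, 9.36 and 9.45 in the NP kidneys and of 9.56, 9.46, 9.41 and 9.34 in the MSC kidneys. Its raw intensity was 504 to 959 an array, against a 95th percentile of the negative controls of 239 to 277. NP kidneys 1, 2 and 3, all on slide 1, were above every MSC kidney, and NP kidneys 4 and 5 were among them. The log2 fold change of Ocrl was -0.15 (95% interval -0.38 to 0.08, limma FDR = 0.578), with a value below 0 in all 27 alternatives, the nearest to 0 being -0.03 with array weights.

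The arrays lay on 2 slides, with NP kidneys 1 to 3 and MSC kidneys 1 and 2 on the first and NP kidneys 4 and 5 and MSC kidneys 3 and 4 on the second. The sign of the MSC minus NP difference was the same on both slides for 4 of the 11 probes, those of Fcgrt, Clcn5, Ocrl and the Lrp2 probe A_64_P090558, and for 64.3% of all probes. The other 7 were higher in MSC kidneys on slide 1 and lower on slide 2. Among the 4, the slide 1 NP means of Clcn5 and Lrp2 A_64_P090558 include NP kidney 2, the highest array of both probes. A fit of slide 1 without it was not run. For Dab2 the difference was 0.44 on slide 1 and -0.50 on slide 2 on probe A_64_P144944, and 0.25 and -0.25 on A_44_P513385. A limma test of the change of the effect between slides, chosen after the data were seen, gave unadjusted p-values of 0.0393 and 0.0676, and an FDR of 1.00 for both probes. At an unadjusted p under 0.05, 1.96% of all probes differed in this way.

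Fcgrt, at 0.41 on slide 1, had an unadjusted limma p of 0.0337 and an FDR of 0.814 there. For the probes other than those of Dab2 and Fcgrt, the unadjusted p-values within a slide were 0.122 or more (limma). On slide 1 and then slide 2 the log2 fold changes were 0.13 and -0.06 for the Lrp2 probe A_44_P1047441, -0.23 and -0.17 for the Lrp2 probe A_64_P090558, 0.32 and -0.07 for Cubn, 0.12 and -0.07 for Amn, and 0.05 and -0.16 for Lrpap1. For Folr1 they were 0.06 and -0.12, for Clcn5 -0.07 and -0.16, and for Ocrl -0.21 and -0.03. None of these was called on either slide alone.

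**Figure D2:**
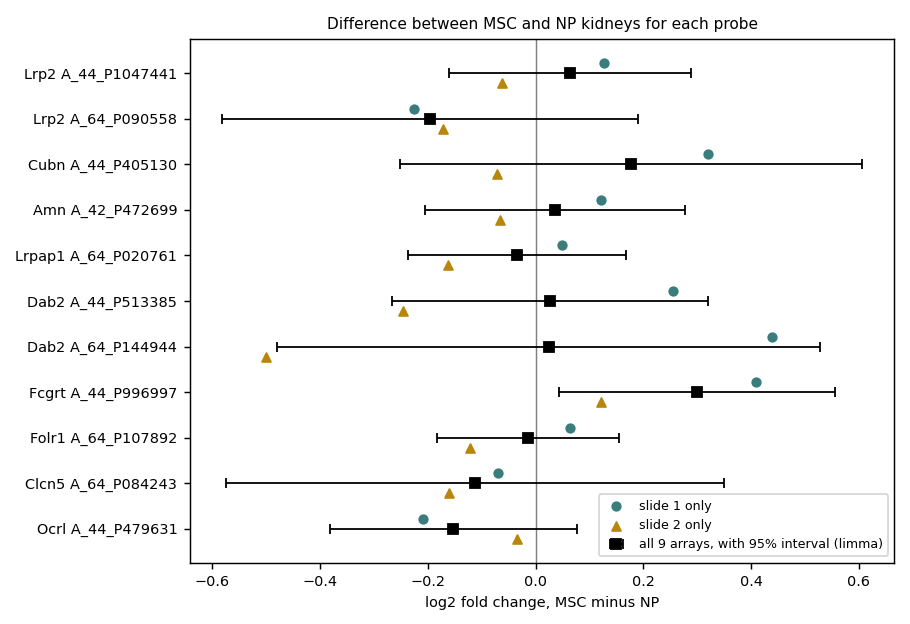
Log2 fold change of MSC over NP kidneys for each probe over all 9 arrays (black squares, with the 95% interval from limma), on slide 1 alone (green circles) and on slide 2 alone (yellow triangles). The interval of Fcgrt, from 0.04 to 0.55, is the one that leaves out 0, and 7 probes have a slide 1 value above 0 and a slide 2 value below it.

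With the slide as a term of the model, the log2 fold changes moved little. That of Fcgrt was 0.28 (limma FDR = 0.321), and it was the only one of the 11 probes with an unadjusted p under 0.05, where 12.7% of all probes had one and 6.95% had one on the side of higher values. Between the slides themselves, the Lrp2 probe A_44_P1047441 was 0.22 higher on slide 2 (limma FDR = 0.225) and Ocrl 0.23 lower (log2 difference -0.23, limma FDR = 0.211). At an unadjusted p under 0.05, 7.12% of all probes were higher and 6.66% lower on slide 2, and 0.096% passed an FDR under 0.05, none of them a member. In the same fit the term for the group was 0.04 for this Lrp2 probe and -0.13 for Ocrl, smaller in size than the term for the slide.

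Deviations from each probe's mean show which kidneys were extreme. NP kidney 2 was the highest array for 3 probes and the lowest for 4, so that it was an extreme for 7 of the 11. NP kidney 1 and MSC kidney 4 were each the lowest for 3, and NP kidney 4 was the highest for 3. The 2 probes highest in NP kidney 2 by the widest margin were the Lrp2 probe A_64_P090558 (0.63 above its mean) and that of Clcn5 (0.52 above), and those of Cubn (-0.54) and Fcgrt (-0.46) were far below theirs. The spots of one probe also read least alike on NP kidney 2 for Cubn (CV 23.5%), Amn (13.9%), Lrpap1 (14.2%), Fcgrt (42.9%) and Clcn5 (37.3%). Why this array stood apart was not tested.

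**Figure D3:**
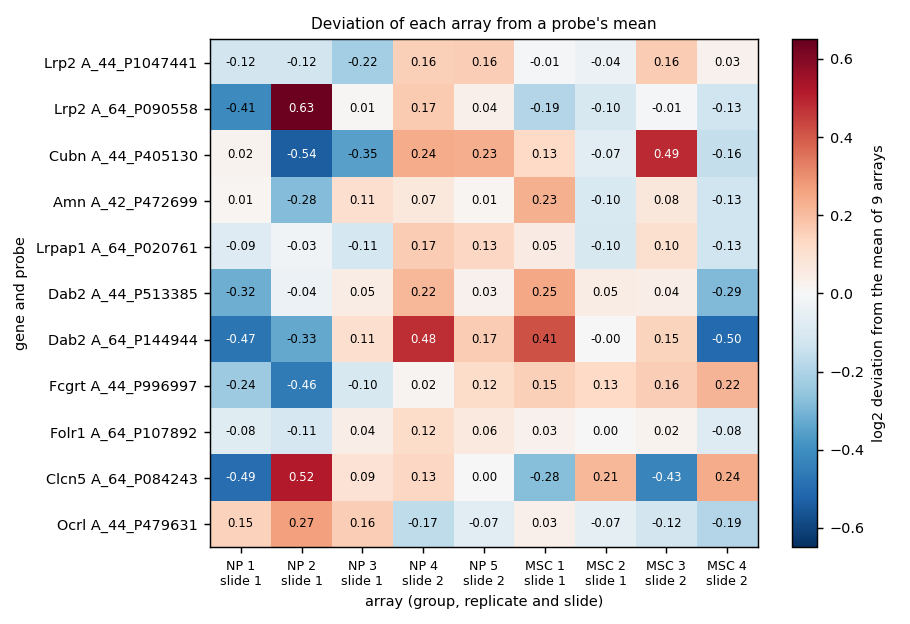
Log2 deviation of each array from the mean of a probe over the 9 arrays, red for above and blue for below, with the value in each cell. NP kidney 2 runs from 0.63 (Lrp2, A_64_P090558) to -0.54 (Cubn), the widest span of any array, while Folr1 stays within 0.12 of its mean throughout.

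The genes most like Lrp2 across the arrays, by Pearson's r with probe A_44_P1047441 over the 9 arrays, were Irs2 (r = 0.975), Csrnp3 (0.964), Klhl14 (0.960), Polr2m (0.955) and Epha4 (0.953). They were the highest of 13766 genes ranked, and high values are found by such a search even among unrelated genes. The arrays compared share their slides: all 5 genes were higher on slide 2, by 0.30 (Polr2m) to 0.95 (Csrnp3) on the log2 scale, as Lrp2 was. Their log2 fold changes between MSC and NP kidneys were 0.08 to 0.29, with limma FDRs of 0.647 to 0.900.

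The machinery around the receptors was read through lists of genes, with 1 probe a gene. Of 41 genes of clathrin coats and apical endosomes, 36 were tested, of which 19 were higher and 17 lower in MSC kidneys and none was called. Their median log2 fold change was 0.04 (0.02 without NP kidney 4 and 0.03 without MSC kidney 4), against -0.006 over all 13766 genes, of which 48.6% were higher and 0% called. At an unadjusted p under 0.05, 4 of the 36 were higher and 2 lower, against 926 and 727 of all genes. The smallest p among them was that of Rab11b, a GTPase of recycling endosomes, at 11.13 ± 0.08 (SD, n = 5) in NP and 11.39 ± 0.04 (SD, n = 4) in MSC kidneys, with a log2 fold change of 0.26 (limma FDR = 0.333). Every MSC value of Rab11b (11.33 to 11.42) was above every NP value (11.00 to 11.21), as for 3.15% of all probes. Rab11b was named for its small p, which makes such a separation likely.

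Among the other coat genes, Hip1r, which ties coated pits to actin, had a log2 fold change of 0.25 (limma FDR = 0.348) on the probe kept and of -0.09 on its other probe. The probe kept was near the filter, with means of 8.84 in NP and 9.09 in MSC kidneys. The filter's thresholds were 8.75 to 8.87 on the arrays. The accessory proteins Epn1 and Eps15 had -0.29 (limma FDR = 0.365) and -0.20 (FDR = 0.399). Epn1 had 12.26 ± 0.14 (SD, n = 5) in NP and 11.97 ± 0.17 (SD, n = 4) in MSC kidneys, and the groups just overlapped, with 12.09 as the lowest NP and 12.11 as the highest MSC value. Rab11fip2 was among the genes that did not pass the filter.

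Among lipoprotein receptors and relatives of megalin, 11 of 14 genes were tested, 6 higher and 5 lower, with a median of 0.02 (-0.02 to 0.06 as each array was left out) and no gene with an unadjusted p under 0.05. Sorl1, a sorting receptor between endosomes and the Golgi, had 0.35 (limma FDR = 0.432) and 0.21 on its other probe. The lower genes with the smallest p were the Wnt co-receptor Lrp5, at -0.23 (limma FDR = 0.647), and Scarb1, an HDL receptor that was put in the list for its ligand, at -0.26 (FDR = 0.647) and 0.06 on its other probe. Lrp1b, Lrp8 and Lrp12 did not pass the filter.

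Of the relatives of Clcn5 in the ion transport of endosomes, 13 of 15 genes were tested, 7 higher and 6 lower, with a median of 0.04 (-0.07 without NP kidney 1) and no unadjusted p under 0.05. The exchangers Clcn4 and Clcn7 had log2 fold changes of 0.16 and 0.13, and Clcn6 one of -0.13 (limma FDR = 0.520). Clcn3 had -0.63 (limma FDR = 0.455) on the probe kept and 0.02 on its other probe. The probe kept was the more variable, with an SD of 0.59 over the NP kidneys. Slc9a8 and Ctns did not pass the filter.

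Of the ligands of the receptors and the enzymes that handle their vitamins, 25 of 32 genes were tested, 13 higher and 12 lower, with a median of 0.02 (0.003 to 0.04 as each array was left out). Tcn2, the carrier with which vitamin B12 enters through megalin, was the one gene with an unadjusted p under 0.05. It had 13.60 ± 0.32 (SD, n = 5) in NP and 14.07 ± 0.13 (SD, n = 4) in MSC kidneys, a log2 fold change of 0.47 (limma FDR = 0.334). Every MSC value of Tcn2 (13.96 to 14.22) was above every NP value (13.12 to 13.94), as for 3.15% of all probes. Tcn2 too was named for its small p. Gpx3, the plasma glutathione peroxidase made by the tubule, had 0.31 (limma FDR = 0.473), and Rxra and the lipocalin Apom had -0.16 (FDR = 0.692) and -0.09 (FDR = 0.675). Rxra was near the filter, with means of 8.85 in NP and 8.68 in MSC kidneys. Ttr, Alb, Gif and Mmab did not pass the filter.

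**Figure D4:**
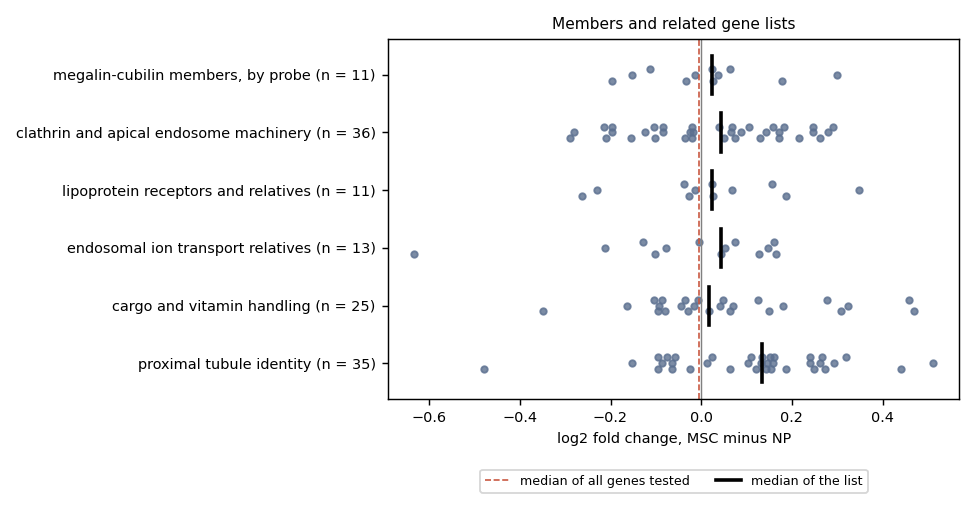
Log2 fold change of MSC over NP kidneys for each gene of the lists around the receptors (1 point a gene) and for the 11 probes of the members, with the median of each list as a black bar and that of all genes tested as a dashed red line. The medians of the members and of the first 4 lists lie between 0.02 and 0.04, and that of the proximal tubule list at 0.13.

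Markers of the cells that hold this uptake system were all measured. All 35 genes of the proximal tubule list passed the filter, with a mean log2 level over the list of 14.93 to 15.26 on the NP and 15.20 to 15.26 on the MSC arrays, and 34 of them were above the filter on all 9 arrays and the other, Slc5a1, on 4. Of the 35, 25 were higher and 10 lower in MSC kidneys, with a median of 0.13 (0.04 without NP kidney 1 and 0.06 without MSC kidney 4), 3 higher at an unadjusted p under 0.05 and none called. Slc5a2, the glucose transporter SGLT2 of the early proximal tubule, had 16.91 ± 0.25 (SD, n = 5) in NP and 17.35 ± 0.07 (SD, n = 4) in MSC kidneys (log2 fold change 0.44, limma FDR = 0.333). The water channel Aqp1 had 0.24 (limma FDR = 0.416). Of the genes lower in MSC kidneys, those with the smallest p were Slc5a8, a lactate transporter, at -0.48 (limma FDR = 0.501), and the brush border enzyme Ggt1, at -0.09 (FDR = 0.702).

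Markers of other cell types were read on the same arrays, and the part of any of them in the values of the members was not tested. Of all genes tested, 48.6% were higher in MSC kidneys. In the red cell list 4 of 4 genes tested were lower in MSC kidneys, all at an unadjusted p under 0.05, with a median log2 fold change of -1.71 (-0.94 without MSC kidney 1). Its mean level was 14.31 to 15.41 on the NP and 10.95 to 14.82 on the MSC arrays. In the fat list 6 of 6 were higher, with a median of 1.33 (0.61 without MSC kidney 3) and a mean level of 10.04 to 11.22 on the NP and 10.09 to 13.49 on the MSC arrays, while Plin1 and Lep did not pass. Among the other nephron segments, 10 of 10 collecting duct genes (median 0.52), 6 of 6 of the distal convoluted and connecting tubule (0.55) and 6 of 7 of the thick ascending limb (0.27) were higher. The list of the distal convoluted and connecting tubule holds the genes that the study itself called on these arrays. Its count and median are therefore not independent of that result. Podocyte markers were lower in 5 of 5 (-0.33), and Synpo did not pass the filter. MSC kidney 4 stood apart here, with a mean level of 11.07 against 12.01 to 12.24 in the other MSC kidneys and 11.73 to 12.43 in the NP kidneys, and without it the median was -0.09, while without MSC kidney 2 it was -0.50.

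Of the injured tubule list 7 of 11 genes were higher (median 0.27, or 0.12 without MSC kidney 4), with a mean level of 11.62 to 12.00 on the NP and 11.79 to 12.00 on the MSC arrays. Leukocyte genes were higher in 5 of 6 (median 0.21, or 0.11 without NP kidney 3 and 0.12 without MSC kidney 3), and Cd3e and Ms4a1 were among those that did not pass the filter. Endothelial genes were higher in 3 of 6 (0.01) and stromal genes in 3 of 7 (-0.01), with medians that ran from -0.03 to 0.07 and from -0.10 to 0.20 as each array was left out. No gene of these lists was called by limma, and at an unadjusted p under 0.05 there were 2 higher in the injured tubule, 3 in the thick ascending limb, 5 in the distal convoluted and connecting tubule, 5 in the collecting duct, 3 in fat and 1 in stroma, and 1 lower in endothelium. Of all 13766 genes tested, 926 were higher and 727 lower at this threshold.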

How the data were processed

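Renal tissue of 5 NP and 4 MSC kidneys was hybridised to Agilent rat arrays of 1 colour (Cy3). The authors read the intensity of each spot with Agilent Feature Extraction 10.7.3.1 and deposited it both raw and background-subtracted. The log2 values of their own table, which they had normalised by cyclic loess and deposited too, correlated with those computed here at 0.999897 to 0.999972 (Pearson's r, array by array). Each array held 62976 spots, of which 58717 were gene spots. Between 65.6% and 74.3% of the gene spots were well above background, 273 to 593 were marked as outliers and left out, and 0 were saturated. The number of arrays limits the precision.

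As in the study's methods, raw intensities were log2 transformed (here the mean of the pixels, as the methods do not name the column, with the median as an alternative), normalised by cyclic loess in limma 3.58.1 (R 4.3.3, data.table, version 1.17.8) and averaged over the spots of a probe. The methods' filter can be read in several ways. A probe was kept where its log2 value exceeded 1.1 times the 95th percentile of the log2 negative controls on at least 4 arrays. The methods keep 1 probe a gene. Here all probes of the members were tested, and the lists used the probe of largest variance. The members and the gene lists were chosen with earlier results of these data known. Named genes were the members, in each list around the receptors and the proximal tubule the 2 genes with the smallest p in each direction, and the 5 genes most like Lrp2. A few genes that the rule or the lists hold are not reported here by name. Each array being 1 kidney, p-values measure the spread between kidneys. On simulated arrays, 179 of 200 changed probes among 15628 were called (80% of those changed 2-fold, 99% of those changed 4-fold), with 4 false calls. The simulated noise was independent between probes and the changes were planted. These shares therefore do not measure the power on the real arrays, where the main fit called no probe. Alternatives took other intensities, scalings, filters, probes, variance models and blocks, the deposited log2 values, and left out each array in turn.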

Additional observations from a re-analysis of the deposited data

Results flagged for a closer look

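In groups of 4 or 5 arrays, an array was singled out where its gap to the nearest other array, divided by the range of the group, was above Dixon's 95% critical value. Of 32 groups of values tested in this way, 3 were above it, where chance gives about 1.6. For Amn, NP kidney 2 had a ratio of 0.749, with a log2 intensity of 15.99 against 16.29 to 16.38 in the other NP kidneys. For the mean level of the clathrin and apical endosome list, NP kidney 1 had a ratio of 0.884, at 12.30 against 12.48 to 12.50. For the mean level of the relatives of Clcn5 in endosomal ion transport, NP kidney 1 had a ratio of 0.848, at 11.45 against 11.60 to 11.63. Both low list levels belong to the same array, which also had the lowest mean over all genes tested (11.77, against 11.87 to 11.97 in the other NP kidneys).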

How the results depend on the processing

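Under 27 alternatives (25 for each probe of Lrp2 and Dab2) no member was called, and Fcgrt, Ocrl and the Lrp2 probe A_64_P090558 kept their direction in all of them. The count of members higher in MSC kidneys was 1 at an unadjusted p under 0.05, that of Fcgrt, whose unadjusted limma p was 0.245 with median scaling, 0.0518 with the 75th percentile, 0.0831 with array weights, 0.307 on slide 2 alone, 0.0501 without NP kidney 1 and 0.0613 without MSC kidney 4. Of all probes, 2 were called higher with array weights and 4 on slide 2 alone, and 1019 were higher and 806 lower at an unadjusted p under 0.05. Signs opposite to those reported were found for 8 probes, and their cause was not tested. With median scaling they were -0.019 for the Lrp2 probe A_44_P1047441, -0.045 for Amn, -0.046 for the Dab2 probe A_44_P513385 and -0.021 for the Dab2 probe A_64_P144944. With the 75th percentile they were -0.010 for Amn and -0.011 for Dab2 A_44_P513385. Array weights gave -0.042 for Lrp2 A_44_P1047441, -0.022 for Dab2 A_44_P513385 and -0.13 for Dab2 A_64_P144944. Slide 2 alone gave -0.062 for Lrp2 A_44_P1047441, -0.072 for Cubn, -0.066 for Amn, -0.25 for Dab2 A_44_P513385 and -0.50 for Dab2 A_64_P144944, and slide 1 alone gave 0.049 for Lrpap1 and 0.064 for Folr1.

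With each array left out in turn, the log2 fold change was -0.034 to 0.086 for Amn (below 0 without NP kidney 2 or MSC kidney 1), -0.075 to 0.0035 for Lrpap1 and -0.044 to 0.014 for Folr1 (above 0 without NP kidney 4 or MSC kidney 4), -0.052 to 0.13 for Dab2 A_44_P513385 (below 0 without NP kidney 1 or MSC kidney 1), -0.11 to 0.20 for Dab2 A_64_P144944 (below 0 without NP kidney 1 or 2 or MSC kidney 1 or 3) and -0.25 to 0.0090 for Clcn5 (above 0 without NP kidney 2 or MSC kidney 3). It was 0.22 to 0.36 for Fcgrt, 0.048 to 0.26 for Cubn, 0.016 to 0.11 for Lrp2 A_44_P1047441, -0.32 to -0.060 for Lrp2 A_64_P090558 and -0.21 to -0.10 for Ocrl. The medians of the gene lists with each array left out were computed after the data were seen.

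The labels do not say whether the replicate numbers pair the kidneys. Same-numbered kidneys had correlations of their deviations of 0.20, 0.32, -0.35 and 0.05, and 2 of 4 MSC kidneys correlated best with their own number. Correlations of so few kidneys cannot show whether they were paired. With the replicate number as a block, Fcgrt had a log2 fold change of 0.36 (limma FDR = 0.397) and no probe was called.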
